A study of Mus musculus with 4 samples.

Results

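Transcripts of 7 genes of cholesterol synthesis, Srebf2, Hmgcs1, Idi1, Fdps, Fdft1, Sqle and Lss, were measured in 4 lung tumors of the KP mouse. The genes were taken from the count table by their symbols, which gave 7 of 39017 genes, and all 7 were measured in every tumor. Cholesterol uptake is not represented among them, since none of the 7 encodes an uptake receptor. The tumors formed a single group, labelled Control, and no other group entered the comparisons. All came from male C57BL/6 mice with a Cre-activated K-ras allele over a wild type allele (K-ras LSL/WT) and floxed p53 (p53Fl/Fl), a model of lung adenocarcinoma. Each mouse received 1500 viral units of lenti.PGK-Cre through the trachea. In this vector the PGK promoter, active in most cell types, drives Cre, so that any infected lung cell can be recombined. Lung tumors were dissected 22 weeks and 5 days after initiation and dissociated, and bulk RNA of all the cells was sequenced, with no sorting step named in the labels. The labels give the genotype as heterozygous fl/wt without naming the gene, while the deposited log2 columns mark the tumors as WT. In the methods, control mice could have no floxed Slc2a1 allele or a single one, so whether these tumors had lost an Slc2a1 allele is not settled here. Nothing states which mouse each tumor came from, and there was 1 library per tumor. The spread between tumors therefore cannot be told apart from that of library preparation, and in bulk RNA fewer cells of a type cannot be told apart from less RNA per cell.

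Cells make cholesterol from acetyl-CoA through mevalonate, isoprenoid diphosphates, squalene and lanosterol. Srebf2 encodes SREBP2, a transcription factor held in the endoplasmic reticulum membrane when sterols are plentiful and cleaved and sent to the nucleus when they are scarce, where it turns on the genes of the pathway. In the lung, alveolar type 2 cells need cholesterol for surfactant, which they store in lamellar bodies. Hmgcs1 condenses acetyl-CoA units on the way to mevalonate, Idi1 interconverts the isoprenoid building blocks, and Fdps joins them to farnesyl diphosphate. Fdft1 commits farnesyl diphosphate to squalene, Sqle puts an epoxide on squalene, and Lss closes the rings to lanosterol.

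The promoters are shown first because SREBP2 binds sterol regulatory elements in the promoters of these genes, its own included. Promoter windows from RefSeq on GRCm38.p6 were found for 4 of the 7 genes, Srebf2, Hmgcs1, Idi1 and Lss. The 250 bases before each RefSeq start were searched on both strands for TCACNCCAC (the core of a sterol regulatory element), CACCCCAC (a shorter form of it), CCAAT (the box of NF-Y, a partner of SREBP2) and GGGCGG (the box of Sp1). TCACCCCA was added after the sequences had been read. The first pair of motifs and TCACCCCA overlap each other, so a single stretch can count for several of them. Of the 4 windows, 1 held TCACNCCAC and 1 held CACCCCAC, against 1.05% and 2.58% of all 32851 windows of the same length. In both cases it was the window of Hmgcs1. TCACCCCA was found in 2 windows, those of Srebf2 and Hmgcs1, and in 1.34% of all windows. Because TCACCCCA was chosen after these sequences were read, that share is no test of it. CCAAT and GGGCGG were in 4 of 4 windows each, and in 33.8% and 32.7% of all windows. Hmgcs1 held 3 matches to CCAAT and Srebf2 held 4 to GGGCGG. For Srebf2, Idi1 and Lss the first annotated transcript starts inside the window. All matches of Idi1, and all GGGCGG matches of Srebf2 but the farthest from the RefSeq start, lie after that first start. A stretch of each of 3 promoters follows, those of the regulator, of the first enzyme and of the last, written 5′ to 3′ on the plus strand and ending before the first annotated transcript start. Their positions are chr15:82147019-82147180 for Srebf2, chr13:119690101-119690350 for Hmgcs1 and chr10:76531355-76531587 for Lss. Capitals mark TCACNCCAC, TCACCCCA and CCAAT, which reads ATTGG where it lies on the minus strand.
Srebf2: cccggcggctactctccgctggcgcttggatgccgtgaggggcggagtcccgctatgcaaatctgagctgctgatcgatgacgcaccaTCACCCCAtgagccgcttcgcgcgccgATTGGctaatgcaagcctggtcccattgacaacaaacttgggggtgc
Hmgcs1: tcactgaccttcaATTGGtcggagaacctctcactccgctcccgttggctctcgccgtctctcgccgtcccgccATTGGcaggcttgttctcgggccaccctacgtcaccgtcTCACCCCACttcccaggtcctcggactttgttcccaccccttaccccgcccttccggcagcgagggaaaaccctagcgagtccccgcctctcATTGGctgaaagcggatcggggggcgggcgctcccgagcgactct
Lss: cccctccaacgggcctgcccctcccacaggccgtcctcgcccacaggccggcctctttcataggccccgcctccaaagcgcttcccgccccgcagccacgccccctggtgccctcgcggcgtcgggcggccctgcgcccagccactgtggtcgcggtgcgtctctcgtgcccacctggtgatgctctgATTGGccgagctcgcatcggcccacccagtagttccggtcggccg
The capitals in Srebf2 and Hmgcs1 hold the same letters TCACCCCA, from 162 to 155 bases before the RefSeq start of Srebf2 and from 137 to 130 bases before that of Hmgcs1. Of the motifs in capitals the printed stretch of Lss holds CCAAT only, and it also holds 2 matches to GGGCGG, which are left in lower case. These matches describe letters in a window, and binding was not measured.

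Total counts were between 8151613 and 8799007, the largest 1.08 times the smallest, and 14225 genes with a mean of at least 1 CPM were tested. CPM is the count per 1000000 of the effective library, the total after TMM scaling. Surfactant protein C (Sftpc), the defining transcript of alveolar type 2 cells, had 24720 ± 5053 CPM (SD, n = 4), and Cdh1 of epithelial cells had 863 ± 22.5 CPM. Intervals given with single values are exact 95% Poisson intervals of the count and cover counting error only.

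Of the 7 genes, 5 were lowest in tumor 3, which was the lowest tumor for 32.6% of all genes tested. The regulator Srebf2 and the enzymes Fdps and Sqle shared the full order tumor 1, 2, 4, 3, which 8.73% of all genes had, the second commonest of the possible orders. For Srebf2, Fdps and Sqle the intervals of tumors 1 and 2 overlapped, so the order of those tumors is uncertain. Hmgcs1 hardly moved, and Idi1 was low in tumor 1 alone. All 7 genes varied between tumors by more than counting noise (chi-square test of the 4 counts with 3 degrees of freedom, Benjamini-Hochberg adjusted over all genes tested). At this depth 76.7% of all genes passed that test, and 88.1% of genes with a mean of at least 20 CPM, so passing it does not set the 7 apart. The highest tumor was more than 1.5-fold above the lowest for 5 of the 7 genes and for 56.9% of all genes. One tumor stood apart from the other 3 for 1 of the 7 genes and for 5.86% of all genes. The median SD of log2 CPM over tumors was 0.38 for the 7 genes and 0.29 for all genes tested, and the median ratio of the highest to the lowest tumor was 1.79 and 1.58. Against the edgeR trend for genes of like abundance, the coefficient of variation was above it for 4 genes, Srebf2, Idi1, Fdps and Sqle, the largest being 38.3% for Sqle against a trend of 25.1%. It was above the trend for 23.1% of all genes tested, and lying above a trend is a description with no test. It was below the trend for Hmgcs1, at 7.34% against 22.6%, and for Fdft1 and Lss.

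**Figure D1:**
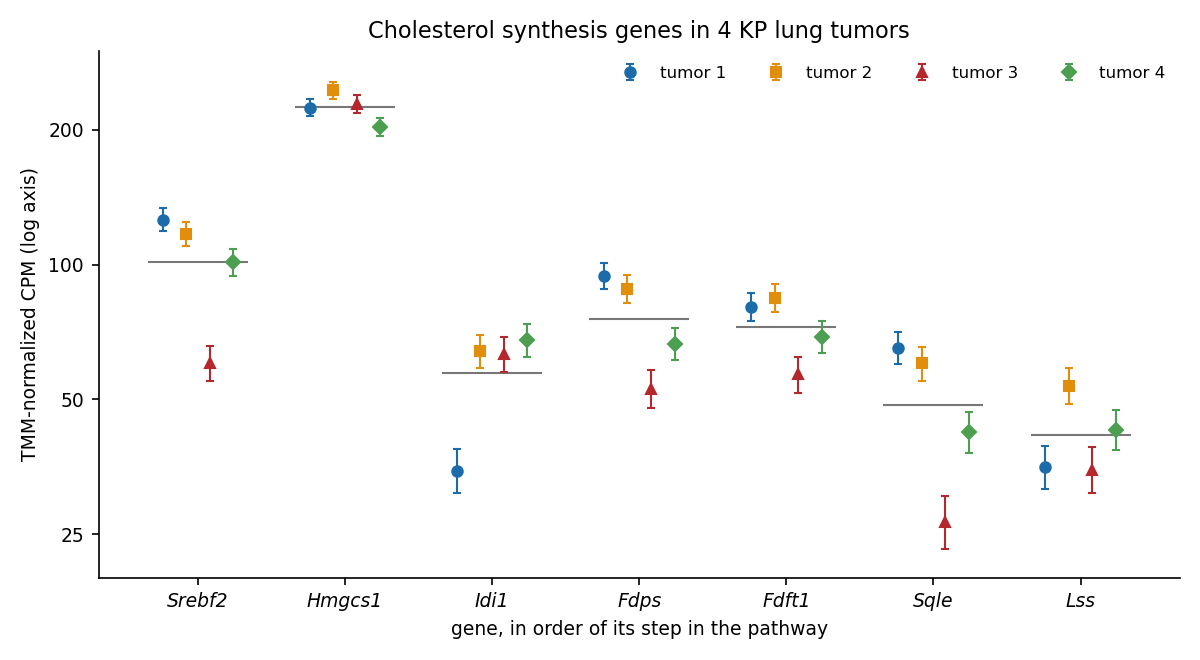
Level of each of the 7 genes in each of 4 tumors, as TMM-normalized CPM on a log axis. Points are single tumors with exact 95% Poisson intervals of the count, and gray bars are means over the 4 tumors. Tumor 3 lies lowest for Srebf2, Fdps, Fdft1, Sqle and, by a margin within the intervals, Lss, while Idi1 is low in tumor 1.

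Srebf2 (ENSMUSG00000022463, chromosome 15, 82147181 to 82205379, plus strand, 19 exons in its longest transcript) is the regulator of the group. Its CPM was 126, 117, 60.2 and 101 in tumors 1 to 4 (mean 101 ± 29.1, SD, n = 4), from 488 to 1145 counts. Tumor 3, with an interval of 55.0 to 65.8 CPM, was below the other 3, while the intervals of tumors 1 and 2 overlapped. The highest tumor was 2.09-fold above the lowest, a ratio that tumor 3 set: without it the remaining tumors spanned 1.24-fold. An intron of Srebf2 hosts Mir33, a microRNA gene that acts on cholesterol export, which had 0 counts in every library. Libraries of polyadenylated RNA do not capture mature microRNAs.

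Among the enzymes before squalene, Hmgcs1 (ENSMUSG00000093930, chromosome 13, 119690379 to 119708260, plus strand) was the most abundant and the steadiest. Its CPM was 224, 245, 228 and 203 in tumors 1 to 4 (mean 225 ± 17.2, SD, n = 4), from 1706 to 2106 counts. The highest tumor was only 1.21-fold above the lowest, and this small spread still exceeded counting noise (adjusted p = 6.2e-07 in the chi-square test). Its SD of log2 CPM ranked 13033 among the 14225 genes tested, counted from the most variable. Tumor 3, the lowest for 5 of the other genes, was the second highest for Hmgcs1, and the third on library totals without TMM.

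Idi1 (ENSMUSG00000058258, chromosome 13, 8885501 to 8892451, plus strand) had 34.7, 64.0, 63.1 and 67.8 CPM in tumors 1 to 4 (mean 57.4 ± 15.3, SD, n = 4), from 315 to 570 counts. Tumor 1 stood apart with an interval of 30.9 to 38.7 CPM, and the intervals of tumors 2, 3 and 4 overlapped. The highest tumor was 1.96-fold above the lowest. Without tumor 1 this ratio was 1.07, and the spread of the other 3 no longer exceeded counting noise (chi-square test, adjusted p = 0.520). Tumor 1 was also lowest for 5 of 7 alveolar type 2 markers, and for 30.3% of all genes tested. The summed level of these markers was 31229 CPM there and 50992 to 58105 CPM in the others. Of the 4 epithelial markers, Epcam, Krt8 and Krt18 were highest in tumor 1, whereas Cdh1 was lowest there at 842 CPM. Tumor 1 was highest for 6 of 7 genes of glycolysis, and for 31.4% of all genes tested. The part of these differences in the level of Idi1 was not tested.

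Fdps (ENSMUSG00000059743, chromosome 3, 89093588 to 89101959, minus strand) followed the order of Srebf2. Its CPM was 94.3, 88.0, 52.8 and 66.6 in tumors 1 to 4 (mean 75.4 ± 19.2, SD, n = 4), from 428 to 857 counts. Tumors 1 and 2 were above tumors 3 and 4 with no overlap of their intervals, and the highest was 1.79-fold above the lowest. Reads of Fdps can be split, because processed copies share near-identical stretches with it. Those with counts were Gm3571, Gm5873 and Gm8163, at most 7.15, 7.70 and 1.07 CPM, and adding them gave a ratio of 1.86 in the same order. Fdps also shares 1124 bases of exon on the same strand with Gm43738, which was not analysed here.

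From squalene onward, the levels of Fdft1 (ENSMUSG00000021273, chromosome 14, 63145150 to 63179578, minus strand) were 80.5, 84.3, 56.9 and 69.1 CPM in tumors 1 to 4 (mean 72.7 ± 12.4, SD, n = 4), from 461 to 732 counts. Tumors 1 and 2 overlapped in their intervals, and tumor 3 was the lowest, 1.48-fold below tumor 2. Exons of Fdft1 overlap 774 bases of Ctsb, a lysosomal protease gene on the opposite strand with 640 to 795 CPM. The libraries were stranded, but the strand setting of the counting is not given in the sources used here, and without strand the reads of the overlap cannot be told apart.

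Sqle (ENSMUSG00000022351, chromosome 15, 59315077 to 59331192, plus strand) was the most variable of the 7, with 65.2, 60.2, 26.7 and 42.2 CPM in tumors 1 to 4 (mean 48.6 ± 17.6, SD, n = 4), from 216 to 593 counts. Tumor 3 had an interval of 23.2 to 30.5 CPM, below that of tumor 4 at 37.9 to 46.9 CPM, and both were below tumors 1 and 2. The highest tumor was 2.45-fold above the lowest, and 1.55-fold without tumor 3. The SD of log2 CPM of Sqle ranked 2509 among all genes tested. No annotated gene overlapped Sqle or shared a near-identical stretch with it, so its count does not carry the doubts that apply to Fdps and Fdft1.

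Lss (ENSMUSG00000033105, chromosome 10, 76531588 to 76557138, plus strand) had 35.3, 53.7, 34.8 and 42.8 CPM in tumors 1 to 4 (mean 41.7 ± 8.81, SD, n = 4), from 282 to 462 counts. Tumor 2 was the highest, above the intervals of the other 3. Tumor 3 was only nominally the lowest, since its interval of 30.9 to 39.1 CPM lay almost wholly within that of tumor 1, 31.6 to 39.4 CPM. The highest tumor was 1.54-fold above the lowest, and 1.23-fold without tumor 2. An antisense gene, 4930483K19Rik, overlaps 381 bases of its exons and had 0 counts in every library. The exons of Hmgcs1 and Idi1 overlap by 557 and 323 bases with the opposite-strand genes Gm48342 and Gm48574, not analysed here, and the counts of both are uncertain to that extent. The copy Gm13502 of Idi1 had at most 0.697 CPM and the copy Gm6781 of Fdft1 at most 0.232 CPM, and adding them gave ratios of 1.93 and 1.49.

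**Figure D2:**
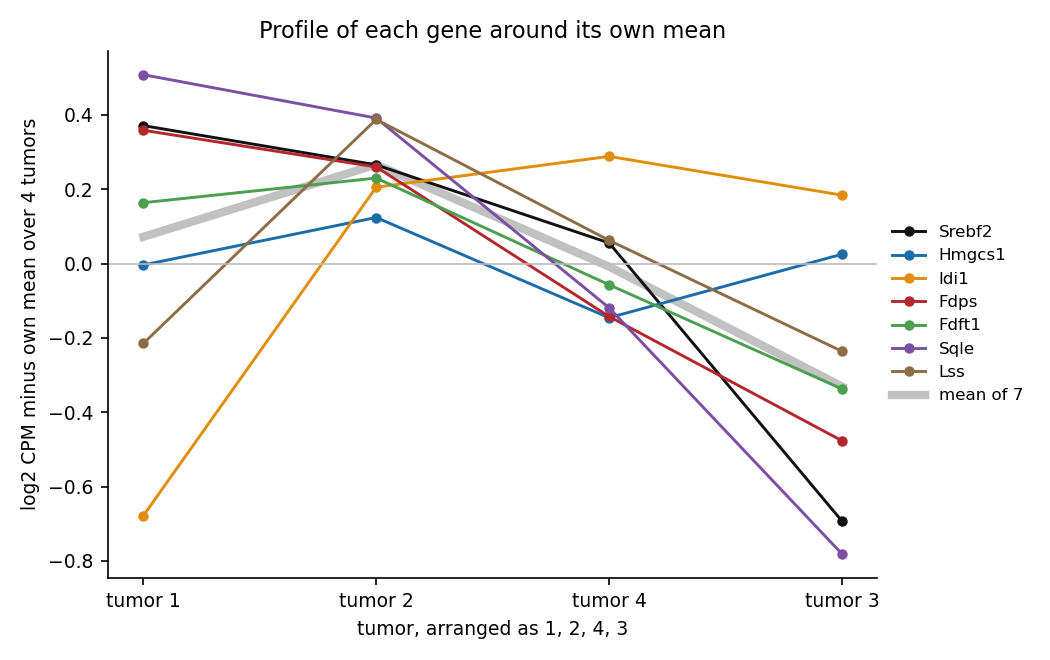
Log2 CPM of each of the 7 genes minus its own mean over the 4 tumors, with the tumors arranged as 1, 2, 4, 3, and the mean of the 7 genes as a broad gray line. Srebf2, Fdps and Sqle fall from left to right, Fdft1 and Lss peak in tumor 2, Hmgcs1 stays near 0, and Idi1 rises from its low value in tumor 1.

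Centered on each gene's own mean, the 7 genes together averaged 0.07, 0.27, -0.33 and -0.01 log2 units in tumors 1 to 4. They were closest to each other in tumor 2, where the SD over the genes was 0.10, and farthest apart in tumor 1, where it was 0.41. In tumor 1 Sqle was 0.51 above its mean and Idi1 was 0.68 below it, so enzymes of the same pathway were high and low in the same library. Fdft1 was nearest to the average profile, with a root mean square distance of 0.06 log2 units, and Idi1 was farthest at 0.48. Summed over the genes, the level was 660, 712, 523 and 593 CPM in tumors 1 to 4 (mean 622 ± 82.1, SD, n = 4). The 7 genes held 0.0682% of all counts in tumor 1 (95% Wilson interval 0.0665 to 0.0699%), 0.0698% in tumor 2 (0.0681 to 0.0715%), 0.0520% in tumor 3 (0.0504 to 0.0536%) and 0.0589% in tumor 4 (0.0573 to 0.0606%). Tumors 1 and 2 overlapped, and tumors 4 and 3 lay below them in that order. The highest sum was 1.36-fold above the lowest, less than the ratio of 6 of the single genes.

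Markers of other cells moved with tumor 3, the tumor in which 5 of the 7 genes were lowest. Of all genes tested, 30.1% were highest in tumor 3. All 5 pan-leukocyte markers were highest there, with a summed level of 285 CPM against 120 to 168 CPM in the others, and none was at 0 in any library. Of 6 macrophage markers, 5 were highest in tumor 3. Their summed level ranged from 1885 CPM in tumor 1 to 6837 CPM in tumor 4, mostly Lyz2, which alveolar type 2 cells also express. Lymphocyte markers were rare, with 1 of 5 at a mean of at least 1 CPM and a summed level of 18.1 CPM in tumor 3 against 2.42 to 5.59 CPM elsewhere. Epcam of epithelial cells had the order of Srebf2, with 600, 470, 218 and 371 CPM in tumors 1 to 4, whereas Cdh1 stayed between 842 and 887 CPM. Krt8 and Krt18 were lowest in tumor 2, at 589 and 640 CPM. The summed alveolar type 2 markers were not lowest in tumor 3, which had 50992 CPM. Endothelial markers summed to 275 CPM in tumor 3, their highest, against 212 to 235 CPM in the others. Fibroblast markers summed to 497 CPM in tumor 3, between 297 CPM in tumor 4 and 528 CPM in tumor 1. Summed club and ciliated cell markers were also highest in tumor 3, at 878 and 29.5 CPM. Among single markers, tumor 3 was highest for 2 of 5 endothelial, 2 of 5 fibroblast, 2 of 3 club and 1 of 3 ciliated. The part of the other cells in the low values of tumor 3 was not tested.

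**Figure D3:**
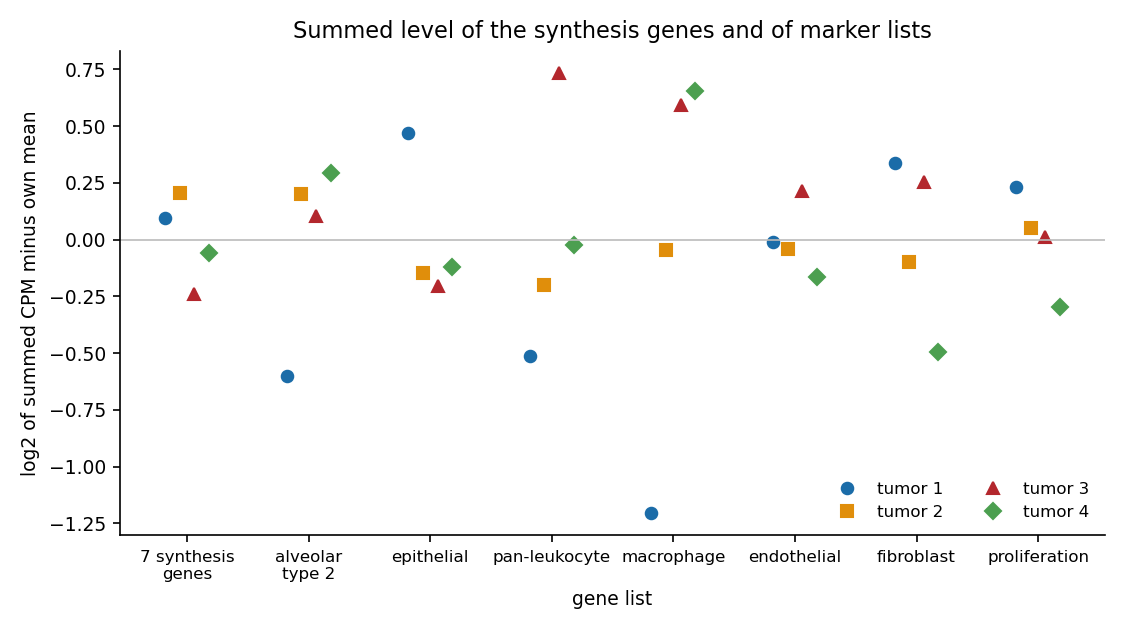
Summed CPM of the 7 synthesis genes and of 7 marker lists in each tumor, as log2 minus the mean of the 4 tumors. Each point is a tumor. The synthesis genes are lowest in tumor 3, and the pan-leukocyte and endothelial lists are highest there. The alveolar type 2, pan-leukocyte and macrophage lists are lowest in tumor 1.

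Levels of different genes were compared within tumors after division by length, as CPM per kilobase of the union of annotated exons. Hmgcs1 was highest at 49.0 ± 3.74 CPM per kilobase (SD, n = 4), followed by Fdps at 17.9 ± 4.56, Fdft1 at 17.2 ± 2.93, Idi1 at 16.4 ± 4.36, Srebf2 at 14.1 ± 4.06, Sqle at 8.76 ± 3.18 and Lss at 3.86 ± 0.816. Among all genes tested, Hmgcs1 was at the 92.8 percentile of level per kilobase and Lss at the 35.3 percentile. Of the 21 pairs, 16 had the same order in 4 of 4 tumors. The share among pairs of all genes tested was not computed, so this count does not set these genes apart. For the 16 pairs the exact two-sided sign-flip permutation test gave p = 0.13, the smallest that 4 tumors allow. After Benjamini-Hochberg adjustment over the 21 pairs this p was 0.164, so no pair could pass 0.05.

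Per kilobase of exon union, Hmgcs1 was above each of the other 6 genes in every tumor. Its log2 difference was 1.48 ± 0.37 (SD, n = 4) over Fdps, its neighbor in the order. Lss was below each of the other 6 in every tumor, by 1.12 ± 0.53 against Sqle. Srebf2 and Sqle were also neighbors in a constant order, with a log2 difference of 0.71 ± 0.16. The other 3 neighboring pairs changed order between tumors. The difference of Fdps minus Fdft1 was 0.04 ± 0.15, that of Idi1 minus Fdft1 was -0.10 ± 0.61 and that of Srebf2 minus Idi1 was -0.22 ± 0.80, each smaller than its spread. All 5 pairs with a changing order involved Idi1 or the pair of Fdps and Fdft1. The order depends on the length used, and the longest protein-coding transcript was a choice made after the data were seen. Per kilobase of that transcript the mean was 64.9 CPM for Hmgcs1, 54.6 for Fdps, 17.6 for Sqle and 8.92 for Lss. On this length Fdps was above Hmgcs1 in tumor 1, and 15 of 21 pairs kept one order.

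**Figure D4:**
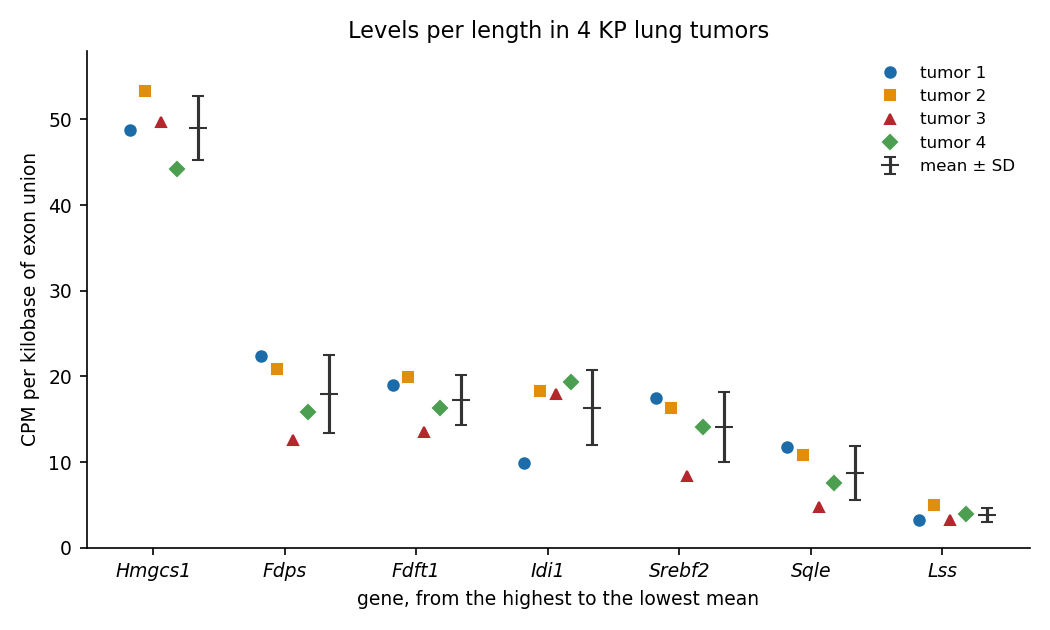
CPM per kilobase of exon union for the 7 genes, arranged from the highest to the lowest mean. Points are the 4 tumors and the bars beside them are mean ± SD. Hmgcs1 lies between 44.2 and 53.3 in all tumors, the middle 4 genes overlap, and Lss lies lowest.

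Srebf2 was set beside Srebf1, the related factor better known for fatty acid synthesis. Srebf1 (chromosome 11, 60199089 to 60222581, minus strand) had 105, 100, 58.2 and 80.2 CPM in tumors 1 to 4, the same order of tumors as Srebf2. Per kilobase of exon union its mean was 15.3 ± 3.82 CPM against 14.1 ± 4.06 for Srebf2 (SD, n = 4). The log2 difference of Srebf2 minus Srebf1 was -0.09, -0.13, -0.30 and -0.01 in tumors 1 to 4, with a mean of -0.13 ± 0.12 (p = 0.13 by the same exact sign-flip test, the smallest possible). With the length of the longest transcript the mean difference was -0.02 (p = 0.75, exact), with differences of either sign. Exons of Srebf1 overlap 109 bases of Rai1 on the opposite strand, so its count is uncertain to that extent.

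The 14 other enzymes of cholesterol synthesis described here had mixed orders of tumors. Of these, 12 varied beyond counting noise, 8 spanned more than 1.5-fold and 5 were lowest in tumor 3. The shares of all genes tested were 76.7%, 56.9% and 32.6%, so these counts do not set the 14 apart. Of the 14, 7 were highest in tumor 2, against 20.4% of all genes tested. A single one of the 14, Acat2, which condenses acetyl-CoA, had the order of Srebf2. Of the 5 that act from acetyl-CoA to isoprenoid diphosphates, Acat2 was 35.3, 32.9, 23.6 and 28.8 CPM in tumors 1 to 4. Pmvk and Ggps1 were highest in tumor 3, at 52.1 and 54.9 CPM, Mvd was highest in tumor 2 at 18.5 CPM, and Mvk at 6.16 ± 0.692 CPM (SD, n = 4) did not pass the test (chi-square, adjusted p = 0.595).

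After lanosterol, Cyp51 (lanosterol demethylase) and Dhcr7 (a late reductase) had the order tumor 2, 1, 4, 3, as Fdft1 did. Cyp51 spanned 1.80-fold from 44.7 CPM in tumor 3 to 80.3 CPM in tumor 2, and Dhcr7 spanned 1.82-fold between the same tumors. Sc5d also had this order, but 51.7 CPM in tumor 2 stood apart from 33.6 to 33.9 CPM in the others. Hsd17b7, of the same order, did not pass the test (chi-square, adjusted p = 0.102) at 15.3 ± 2.01 CPM. The remaining 5 had other orders. Lbr and Tm7sf2, which reduce the same sterol bond, were lowest in tumor 1 at 54.1 CPM and highest there at 21.2 CPM, respectively. Msmo1 and Nsdhl, which remove methyl groups, were highest in tumor 2 at 69.1 and 40.5 CPM, and Ebp, an isomerase, was highest in tumor 1 at 75.7 CPM.

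**Figure D5:**
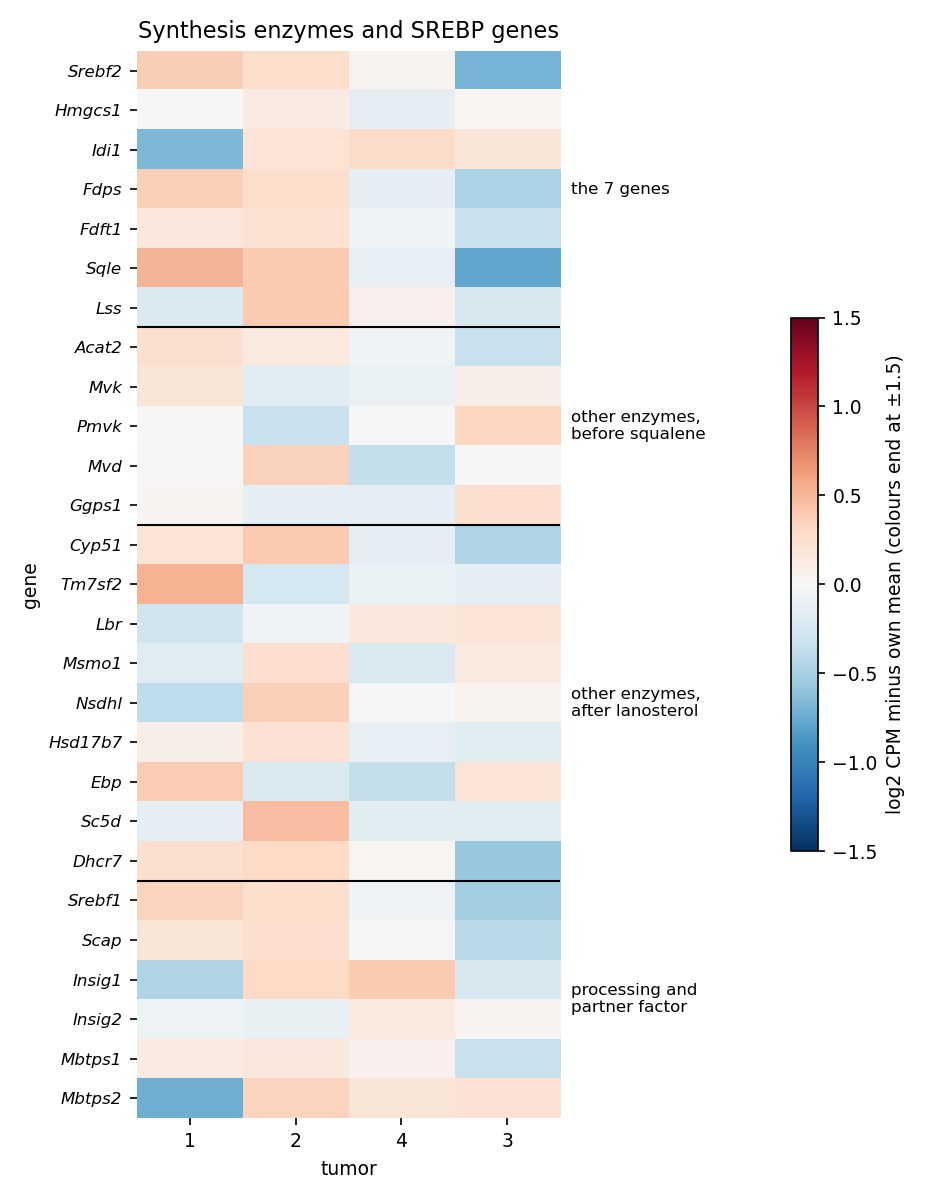
Log2 CPM minus the gene's own mean in tumors 1, 2, 4 and 3 for the 7 genes, the 14 other enzymes and the 6 genes of SREBP processing and partner factor, with red above and blue below the mean and colors ending at 1.5 log2 units. In tumor 3 Sqle and Srebf2 are the darkest blue cells, and the blue cells of tumor 1 include Idi1, Insig1 and Mbtps2.

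The machinery that releases SREBP2 from the membrane was read from 6 genes with Srebf1 among them. All 6 varied beyond counting noise, as did 76.7% of all genes tested. Of them, 3 were lowest in tumor 3 and 2 in tumor 1, against 32.6% and 30.3% of all genes tested. Mbtps1, the first protease, was the most abundant at 143 ± 20.9 CPM (SD, n = 4), lowest in tumor 3 at 113 CPM. Mbtps2, the protease that makes the second cut, varied most. It had 19.4, 40.3, 37.1 and 36.5 CPM in tumors 1 to 4, so that tumor 1 stood apart as it did for Idi1.

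Genes that bring cholesterol in, release it from lysosomes or pass it on numbered 7, and other receptors were not analysed here. All 7 varied beyond counting noise, as did 76.7% of all genes tested. Of them, 2 were lowest and 4 highest in tumor 3, against 32.6% and 30.1% of all genes tested. Npc2, which carries cholesterol inside lysosomes, was the most abundant at 3146 ± 403 CPM (SD, n = 4). Mylip, a ubiquitin ligase that removes lipoprotein receptors, varied most, with 18.7, 11.5, 33.4 and 10.1 CPM in tumors 1 to 4. Of the 7 genes of export, esterification and oxysterol sensing, 4 varied beyond counting noise, 0 were lowest in tumor 3 and 3 were highest there. Soat1, which esterifies cholesterol, led them at 452 ± 96.7 CPM, and the exporter Abcg1, a gene also expressed by macrophages, had 17.5, 16.0, 42.9 and 25.1 CPM in tumors 1 to 4.

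In fatty acid synthesis, the pathway of Srebf1, 8 of 8 genes varied beyond counting noise, as did 76.7% of all genes tested. Of these, 4 were lowest and 3 highest in tumor 3, against 32.6% and 30.1% of all genes tested. Scd1, a desaturase, was the most abundant at 3335 ± 1054 CPM (SD, n = 4) and highest in tumor 3. Elovl6, an elongase, varied most, with 87.9, 35.5, 9.38 and 23.8 CPM in tumors 1 to 4, in the order of Srebf2. Of 7 genes of glycolysis, 7 varied, 1 was lowest and 0 were highest in tumor 3. Ldha led at 1478 ± 386 CPM, and Gapdh varied most, from 207 CPM in tumor 2 to 678 CPM in tumor 1. The median ratio of the highest to the lowest tumor was 1.79 for the 7 cholesterol genes, 1.94 for fatty acid synthesis and 2.10 for glycolysis.

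Genes were compared with the average profile of the 7 by the root mean square difference of centered log2 CPM over the 4 tumors. The 8555 candidates had a mean of at least 10 CPM. Since 10269 genes reached that mean, it was not the only condition for a candidate. The most alike were Psmf1, Usp19, Rps13, Ptges3 and Pop5, with differences between 0.00938 and 0.0204 log2 units. Each had the order tumor 2, 1, 4, 3, which is that of the average profile and so follows from the matching. Usp19, for example, had 107, 121, 81.4 and 99.9 CPM in tumors 1 to 4. None of them is an enzyme of cholesterol synthesis. Rps13, a ribosomal protein gene, belongs to a class with many processed copies, so its count is uncertain.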

How the data were processed

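RNA of 4 KP lung tumors was sequenced from TruSeq stranded mRNA libraries made from 500 ng of total RNA, as single-end reads of 85 nt. According to the submitters' processing notes, the authors used bcl2fastq 2.17, Cutadapt 1.4.2, HISAT2 on mm10, featureCounts 1.4.4 and edgeR. The annotation release and strand setting are not given in the sources used here. The deposited counts are raw and per gene. The deposited log2 values are TMM-normalized counts from voom, per the methods, and served as an alternative. No column was left without a sample (0 columns), and 156068 of 156068 values agreed between the combined table and those of single tumors.

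TMM factors for CPM were computed in R 4.3.3 by edgeR 4.0.16, and log2 CPM with a prior count of 0.5 and 1 added to the effective size. Total counts of 8151613 to 8799007 make 3 counts equal to 0.330 to 0.370 CPM. Reads carried no molecular identifiers. Genes with a mean of at least 1 CPM were tested by chi-square (SciPy 1.17.1), with a threshold of 0.05. A tumor was called apart above Dixon's ratio of 0.829. Positions, lengths and overlaps come from GENCODE M21 on GRCm38, which held 96.6% of gene IDs. Copies were sought with BLAST 2.17.0 (at least 80 nt at 97% identity). Tests were tried on simulated data. Alternatives were DESeq2 1.42.0 size factors, totals alone, other filters, prior counts, lengths and noise models, added copies, and leaving out tumors. Of 112 listed genes, 2 were matched by their current symbol. All 7 genes and the other synthesis enzymes are named, apart from 1 that is not reported here. From each other pathway list the most abundant gene, the most variable gene and any gene under 1 CPM are named, with 0 under it. The 7 genes and the lists were chosen with earlier results of these data known, and p-values measure only the spread between these samples, which may be technical.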

Additional observations from a re-analysis of the deposited data

Results flagged for a closer look

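Of 72 sets of 4 values examined, 8 had one tumor apart from the other 3 by Dixon's ratio. Chance gives about 3.6 (1 in 20) for independent sets that were not chosen by their spread. Here some genes were named for the largest SD of their list, and sums and differences share genes. The 8 therefore cannot be read as an excess over chance. Idi1 had a ratio of 0.892, with tumor 1 low at 34.7 CPM against 63.1 to 67.8 CPM in the others. Mbtps2, the second protease of SREBP processing, had a ratio of 0.865, again with tumor 1 low at 19.4 CPM. Sc5d, an enzyme after lanosterol, had a ratio of 0.978, with tumor 2 high at 51.7 CPM.

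Among differences between the 7 genes, that of Hmgcs1 minus Fdft1 had a ratio of 0.851, with 1.88 log2 units in tumor 3 against 1.35 to 1.43 in the others. The difference of Fdps minus Lss had a ratio of 0.862 and that of Fdft1 minus Lss a ratio of 0.895, both with tumor 1 high, at 2.77 and 2.54 log2 units. These differences share genes and are not independent.

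The summed epithelial markers had a ratio of 0.879, with tumor 1 high at 3972 CPM against 2488 to 2632 CPM. The summed club cell markers had a ratio of 0.836, with tumor 1 low at 36.4 CPM against 521 to 878 CPM.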

How the results depend on the processing

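In all, 110 alternative values were computed for 15 results. Of these, 102 stayed within their limits, 1.5 times for counts, 1 SD for ratios and the same sign for the mean of Srebf2 minus Srebf1. That mean kept its sign throughout, and a reversed direction was not looked for in the other results. Some of the 102 could not move. Other scalings cancel in Srebf2 minus Srebf1, and Srebf2, Hmgcs1, Sqle and Lss had no counted copies to add. The number of genes varying more than counting noise was 7 under DESeq2 size factors, totals alone, no filter and a minimum of 10 CPM, and 6 to 7 with a tumor left out, Idi1 being lost without tumor 1. An edgeR dispersion above the trend, which is no test, was found for 4, against 23.1% of all genes. Genes above 1.5-fold numbered 5 under the other scalings and 3 to 5 with a tumor left out, the lowest without tumor 3. Pairs in a constant order numbered 15 to 16 under other lengths. They numbered 16 under other scalings, which cancel within a tumor and cannot change the order. With a tumor left out they numbered 16 to 18, and leaving out a tumor can only keep or raise this number. Ratios of single genes moved past 1 SD in 6 of 56 alternatives, all of them leaving out a tumor. The summed ratio was 1.20 to 1.36 with a tumor left out and 1.37 with copies added, and the mean of Srebf2 minus Srebf1 was -0.17 to -0.08 with a tumor left out and -0.02 with either transcript length. Genes lowest in tumor 3 stayed at 5, and those in the order tumor 1, 2, 4, 3 were 4 on totals alone, where Fdft1 joined them, both alternatives chosen after the data were seen. Depth limits the least abundant values, such as Sqle in tumor 3 with its interval of 23.2 to 30.5 CPM.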
